A study of Rattus norvegicus with 44 samples.

Results

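Blood collected 1 day after a neurotoxic amphetamine exposure (AMPH) was set directly against blood collected 1 day after environmentally-induced hyperthermia (EIH), in which rats are made hot by their surroundings and receive no amphetamine. The arrays were chosen by their source and time labels, which gave 4 AMPH and 4 EIH arrays, 8 of the 44 arrays of the series. Each array held trunk blood of 1 male Sprague-Dawley rat of the NCTR strain, aged 3 months, labelled with Cy3 in a single colour. Neither doses nor chamber conditions nor body temperatures of the rats could be taken from the labels. No saline array entered the test, and the 4 saline arrays of the same time are quoted only as a reference level. The tissue tag of the blood samples mentions the striatum, a brain region, whereas the treatment protocol describes blood taken at decapitation. The series was designed to compare immune responses of blood with those of the choroid plexus and the meninges, and this pair of groups asks how blood a day after the drug differs from blood a day after heat without the drug.

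Whole blood carries red cells and reticulocytes, platelets, neutrophils, monocytes and lymphocytes, and its RNA is a mixture of all of them. Neutrophils are short-lived phagocytes that leave the marrow and the vessel wall under stress hormones and the growth factor G-CSF, while lymphocytes tend to leave the circulation under glucocorticoids. In such bulk samples, fewer cells of a type and less RNA per cell cannot be told apart.

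The labelled tissue matched its markers. Alas2, the erythroid enzyme that begins haem synthesis, lay between 15.98 and 15.99 on the log2 intensity scale in all 8 arrays, at the top of the measured range, and Pf4, a platelet chemokine, lay between 15.28 and 15.93. Values were missing for 6.81% to 11.3% of probes per array, with a mean of 8.61% ± 1.91 (SD, n = 4) after AMPH and 8.77% ± 1.22 (SD, n = 4) after EIH, a difference of -0.156 percentage points (exact two-sided permutation test, p = 0.857, smallest possible 0.0286). Between 14.4% and 16.7% of the values per array lay at or under an intensity of 32 (log2 of 5), where many probes share the same few values, so low values carry no fine order. Across the whole scale, 90.8% to 92.8% of the values of an array were also held by another probe of that array, so the deposited scale is stepped throughout. AMPH replicates 3 and 4 correlated least with the other 7 arrays (mean r of 0.889 and 0.898 over genes, against 0.911 to 0.927 for the remaining arrays). EIH replicate 3 bears a rat number that also stands in a choroid plexus pool of 3 h. The rat numbers of EIH replicates 1, 2 and 3 also stand in choroid plexus pools of 1 day. The titles of those pools say control, whereas their source names say EIH, so the labels conflict on treatment there. Nothing in the labels pairs AMPH with EIH rats, and p-values measure the spread between these 8 rats' samples.

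No gene passed correction in the direct comparison. Of 9848 genes with at least 2 values in each group, 0 (0%) had a Benjamini-Hochberg adjusted p under 0.05 in limma, and the smallest adjusted p was 0.295. At an unadjusted p under 0.05 there were 1329 genes (13.5% of those tested), 667 higher after AMPH (6.77%) and 662 lower (6.72%). Among the values present, 570 genes (5.79%) had every AMPH value above every EIH value. At 627 genes (6.37%) every AMPH value lay below every EIH value. Blank cells were skipped in these counts, and 7759 of the 9848 genes had values on all 8 arrays. Groups with blanks hold fewer values and part more easily. Differences of at least 1 on the log2 scale were found at 647 genes higher and 547 genes lower after AMPH, against a median standard deviation between replicates of 0.48 in AMPH and 0.39 in EIH. Since no gene was called, gene lists are described below by the share of members at an unadjusted p under 0.05, read against these percentages. The count over all genes also moved as each array was left out, between 951 and 1504. It ranged from 491 to 774 for genes higher after AMPH and from 436 to 865 for genes lower. Member counts without 1 array, given below, stand beside these moving counts. Differences are AMPH minus EIH on the log2 scale, as limma estimate ± standard error.

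The gene with the smallest p was Lilrb3l, a leukocyte immunoglobulin-like receptor gene. RefSeq lists this older symbol under both Pira2 and Pirb, close relatives, so which of them was measured is not settled. Its log2 intensity was 7.23, 7.09, 7.78 and 8.02 in EIH replicates 1 to 4 and 9.32, 9.52, 9.50 and 9.74 in the AMPH replicates. All 4 AMPH arrays were above all EIH arrays, and above the saline arrays too, which lay between 7.14 and 8.20. The difference was 1.99 ± 0.25, a 3.96-fold higher level with a 95% interval of 2.66 to 5.90 (limma adjusted p = 0.295, unadjusted 4.7e-05). It was the 1 gene called by any alternative, with an adjusted p of 0.0190 in limma with an intensity trend and a robust spread.

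Further genes without overlap and with a higher level after AMPH were led by Tom1, an adaptor protein of endosomal sorting. Tom1 measured 5.76, 5.65, 5.16 and 5.43 after EIH and 7.48, 6.81, 7.14 and 7.88 after AMPH, with saline between 6.21 and 7.90, so here it was the EIH arrays that lay below both other groups. Its difference was 1.83 ± 0.27. Ckb, the brain-type creatine kinase, measured 9.56, 9.32, 9.40 and 9.24 after EIH and 10.43, 10.18, 10.44 and 10.49 after AMPH, a difference of 1.01 ± 0.16 and a spread within groups of 0.14 (SD) in each. Aldh3b1, an aldehyde dehydrogenase, differed by 0.96 ± 0.17, Gsk3a, a glycogen synthase kinase, by 0.92 ± 0.17 and Alox15b, a lipoxygenase, by 0.79 ± 0.16. Megf9 differed by 0.86 ± 0.17, although its other, dimmer probe gave -0.21 ± 0.54. Sln, sarcolipin, a small inhibitor of the sarcoplasmic calcium pump, differed by 1.12 ± 0.20, with -0.19 ± 0.59 from its dimmer probe. Cfb, complement factor B, measured 7.97, 7.84, 7.75 and 7.89 after EIH and 9.38, 8.51, 9.40 and 9.56 after AMPH, a difference of 1.35 ± 0.25. Pon1, the serum paraoxonase, differed by 1.37 ± 0.24, Cps1, a urea cycle enzyme of the liver, by 1.47 ± 0.24 over 3 values in each group and Morc4 by 2.73 ± 0.32 over 3 values in each group. All 3 values of Morc4 and of Cps1 after EIH were at or under an intensity of 32, so the size of these differences is not resolved. Adjusted p was 0.295 for each of these 12 genes in limma.

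The 12 genes that led in the other direction also had an adjusted p of 0.295 each in limma. Scml4, a polycomb-type regulator, measured 10.58, 10.76, 10.56 and 10.48 after EIH and 9.60, 9.78, 9.30 and 9.48 after AMPH, a difference of -1.05 ± 0.17 (2.08-fold lower after AMPH). The saline arrays lay between, at 9.88 to 10.52. Sigirr, an inhibitory member of the interleukin 1 receptor family, measured 10.31, 10.13, 10.18 and 10.14 after EIH and 9.48, 9.57, 9.06 and 8.99 after AMPH, a difference of -0.91 ± 0.19, with saline at 10.17 to 10.35 beside the EIH level. Dyrk2, a protein kinase, gave -0.96 ± 0.17, and its other probes gave -0.86 ± 0.24 and -0.39 ± 0.53. Sirt4, a mitochondrial sirtuin, differed by -1.11 ± 0.20, and Dnmt3b, a DNA methyltransferase, by -1.09 ± 0.23. Zbtb1, a zinc finger factor of lymphocyte development, differed by -1.67 ± 0.27. It had 3 AMPH values, with a mean of 5.1 near the low end of the scale. Zfp365 differed by -2.02 ± 0.42, Zfp292 by -1.61 ± 0.30, Spag8 by -1.90 ± 0.36, Asic3 by -1.24 ± 0.26, Rab3a by -1.63 ± 0.32 (over 3 EIH values) and Pip4k2b by -1.66 ± 0.35. These 6 genes each had 2 to 5 of their values at or under an intensity of 32, so their differences rest on the stepped low end of the scale.

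**Figure D1:**
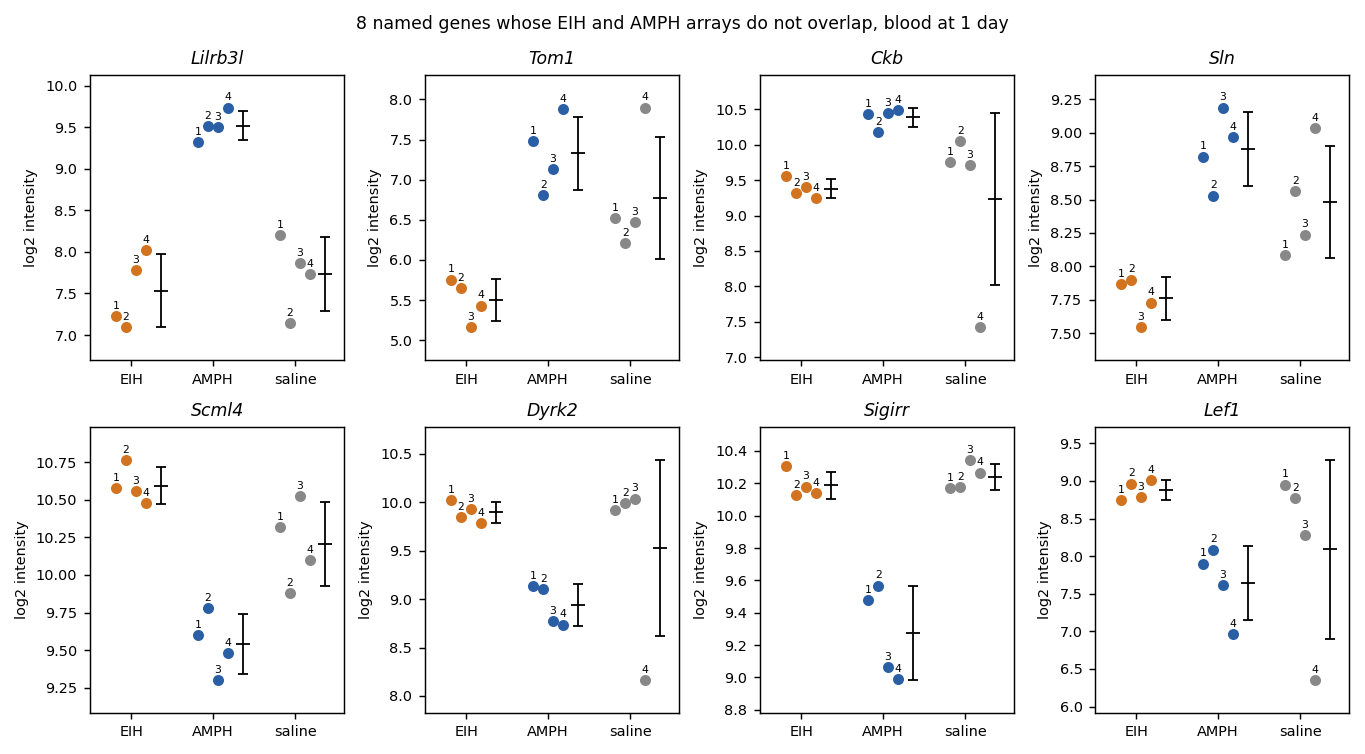
Log2 intensity (vertical axes) of 8 genes on each blood array of 1 day, with EIH in orange, AMPH in blue and saline in grey; digits give the replicate and bars the mean ± SD of 4 arrays. EIH and AMPH arrays do not overlap at any of the 8 genes; for Lilrb3l the AMPH arrays lie from 9.32 to 9.74 and the EIH arrays from 7.09 to 8.02.

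Among the marker lists, the neutrophil list stood highest after AMPH. All 24 tested members had a higher mean after AMPH, against 49.4% of all genes, with a median difference of 1.35 against -0.01 over all genes. At an unadjusted p under 0.05 were 10 of the 24 members, all higher, where 6.77% of all genes were. The mean over the 22 members with values on all 8 arrays was 9.10, 9.11, 8.87 and 9.06 after EIH and 9.87, 9.80, 10.84 and 10.40 after AMPH. AMPH replicates 3 and 4 were the highest, and the groups did not overlap. The same members averaged 9.40, 9.35, 8.72 and 9.61 on the saline arrays. Without AMPH replicates 3 and 4, an alternative chosen after the data were seen, the median was 0.69 and 5 of 23 members had an unadjusted p under 0.05, beside 3.96% of all genes.

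Receptors on the list differed by between 0.81 for Il1r2, a decoy receptor of interleukin 1, and 2.05 ± 0.60 for Fpr1, which senses bacterial formyl peptides. Il1r2 had overlapping groups and an unadjusted p of 0.602 in limma. Csf3r, the receptor for G-CSF, measured 8.41, 8.43, 8.96 and 9.24 after EIH and 9.72, 9.79, 10.13 and 11.14 after AMPH. Every AMPH array was above every EIH array, by a mean of 1.43 ± 0.36 (2.70-fold, 95% interval 1.51 to 4.83, limma adjusted p = 0.295). Cxcr2, the receptor for neutrophil-attracting CXC chemokines, measured 7.47, 7.73, 8.22 and 7.82 after EIH and 8.52, 8.66, 10.15 and 9.68 after AMPH, a difference of 1.45 ± 0.40. Lilrb2, an inhibitory leukocyte receptor whose 2 probes carry an older symbol and were matched by their RefSeq transcript, differed by 1.34 ± 0.29 and by 1.65 ± 0.54 on its other probe. At Fpr1 an AMPH array was below the highest EIH array, and Trem1, an amplifier of inflammatory signals, differed by 1.02 ± 0.42.

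Enzymes and granule proteins differed by between 0.19 ± 1.03 for Pglyrp1, a peptidoglycan recognition protein, and 2.05 ± 1.00 for Mmp9, gelatinase B. Padi4, which citrullinates histones in neutrophils, measured 10.63, 10.28, 10.53 and 10.35 after EIH and 11.18, 11.29, 12.43 and 12.81 after AMPH, a difference of 1.48 ± 0.39 without overlap. Alox5ap, which delivers arachidonic acid to 5-lipoxygenase, differed by 1.62 ± 0.46, Mmp8, neutrophil collagenase, by 1.72 ± 0.64 and Prtn3, proteinase 3, by 0.68 ± 0.21. S100a8, a subunit of calprotectin, measured 12.81, 12.58, 13.64 and 13.29 after EIH and 13.34, 13.58, 15.83 and 14.99 after AMPH. Its groups overlapped, the difference was 1.36 ± 0.57 (0.89 without AMPH replicate 3), and its other probes gave 1.59 ± 0.62 and 1.32 ± 0.46. S100a9, the partner of S100a8, read 7.28 on EIH replicate 3 and 9.33 on AMPH replicate 3 but 12.61 to 15.04 on the other 6 arrays, so its difference of 1.36 ± 1.67 has little precision. Lcn2, an iron-scavenging granule protein, differed by 1.68 with an unadjusted p of 0.137 in limma.

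Monocyte and macrophage genes lay in the same direction with a smaller median. Of 22 tested members, 20 had a higher mean after AMPH, 6 were at an unadjusted p under 0.05, all higher, and the median difference was 0.60. Their mean over 21 members was 9.31, 9.44, 9.72 and 9.38 after EIH and 10.18, 10.12, 10.12 and 10.24 after AMPH, so the 4 AMPH arrays agreed closely here, unlike the neutrophil means. Itgam, the integrin alpha M of neutrophils and monocytes, measured 7.90, 6.70, 8.43 and 9.37 after EIH and 9.64, 9.96, 11.65 and 11.52 after AMPH. Its difference of 2.59 ± 0.68 (6.03-fold, 95% interval 2.04 to 17.9) was the largest in the list. The groups did not overlap, but EIH replicate 4 lay close under AMPH replicate 1. Fcgr1a, the high-affinity IgG receptor, differed by 0.78 ± 0.24, with 0.76 ± 0.26 from its other probe. C1qc, a complement subunit made by macrophages, differed by 1.10 ± 0.36, with 0.41 ± 0.55 on its other probe, and Tlr2, a receptor for bacterial lipoproteins, by 1.13 ± 0.39. Mrc1, the mannose receptor, gave 1.59 ± 0.49 on the probe used and -1.74 ± 0.87 on its dimmer probe, so its direction is not settled. Cd14, the lipopolysaccharide coreceptor, gave 1.16 ± 0.56 and 1.45 ± 0.44 on its 2 probes, the former 0.66 without AMPH replicate 3. Csf1r, Cx3cr1 and Adgre1, which mark monocytes and macrophages more strictly than Itgam, differed by 0.58, 0.06 and 0.06, with unadjusted limma p-values of 0.103, 0.862 and 0.866.

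T cell genes showed the opposite direction. Of 22 tested members, 21 had a lower mean after AMPH, with a median difference of -0.92, and 14 were at an unadjusted p under 0.05, all lower, where 6.72% of all genes were. The mean over 20 members was 9.62, 9.39, 9.29 and 9.22 after EIH and 8.84, 8.98, 8.07 and 8.32 after AMPH, again without overlap and with AMPH replicates 3 and 4 furthest out. Saline arrays averaged 9.62, 9.35, 9.48 and 8.71 over these members. Without AMPH replicates 3 and 4 the median was -0.51 and 6 of 20 members had an unadjusted p under 0.05, all lower, beside 3.87% of all genes.

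Transcription factors of naive T cells and chains of the antigen receptor complex were both among them. Lef1, a factor of naive and developing T cells, measured 8.74, 8.96, 8.78 and 9.01 after EIH and 7.90, 8.09, 7.61 and 6.96 after AMPH. All AMPH arrays were below all EIH arrays, by 1.24 on average (difference -1.24 ± 0.26, 2.36-fold lower, limma adjusted p = 0.295). Tcf7, a related factor, differed by -1.04 ± 0.29 without overlap, and Bcl11b, which maintains T cell identity, by -1.45 ± 0.50, with -0.36 ± 0.45 on its other probe. Cd3e, a signalling chain of the receptor complex, measured 9.55, 9.80, 9.65 and 9.66 after EIH and 9.05, 9.31, 8.26 and 8.44 after AMPH, a difference of -0.90 ± 0.26. Cd3d differed by -0.78 ± 0.20, Cd3g by -1.19 ± 0.34 and Cd247 by -0.95 ± 0.33. Cd6, an adhesion receptor, measured 12.68, 12.72, 12.38 and 12.28 after EIH and 11.71, 11.91, 10.84 and 11.12 after AMPH, a difference of -1.12 ± 0.28, but its dimmer probe gave -0.07 ± 0.22. Zap70, the kinase that relays the receptor signal, differed by -1.14 ± 0.36. The coreceptor genes Cd8a and Cd8b differed by -0.89 ± 0.29 and -0.63 ± 0.25, while Cd4, which rat monocytes also carry, was the member with a higher mean after AMPH (0.43 ± 0.52).

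**Figure D2:**
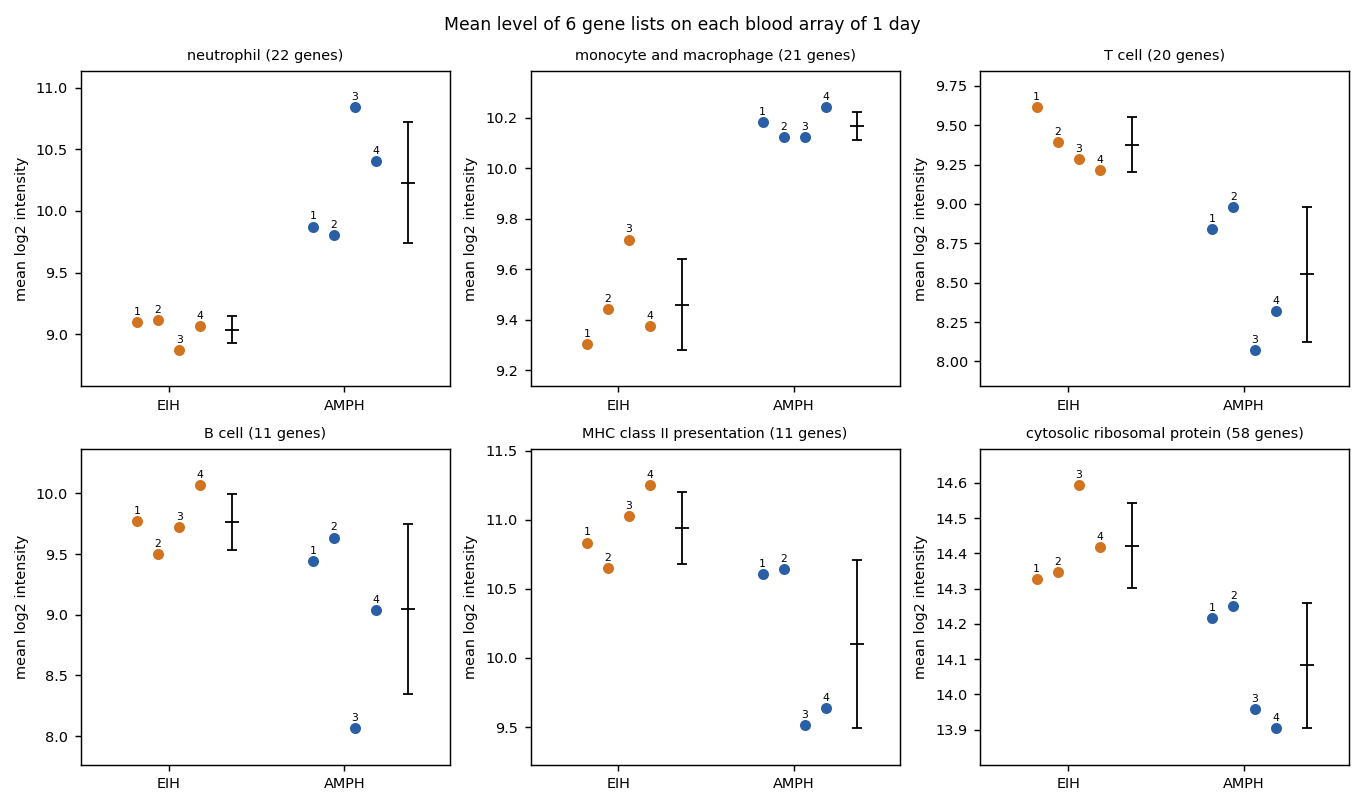
Mean log2 intensity of the members of 6 gene lists on each array (vertical axes), with EIH in orange and AMPH in blue; digits give the replicate and bars the mean ± SD of 4 arrays. The neutrophil means lie at 8.87 to 9.11 after EIH and at 9.80 to 10.84 after AMPH, and the T cell means at 9.22 to 9.62 and 8.07 to 8.98.

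**Figure D3:**
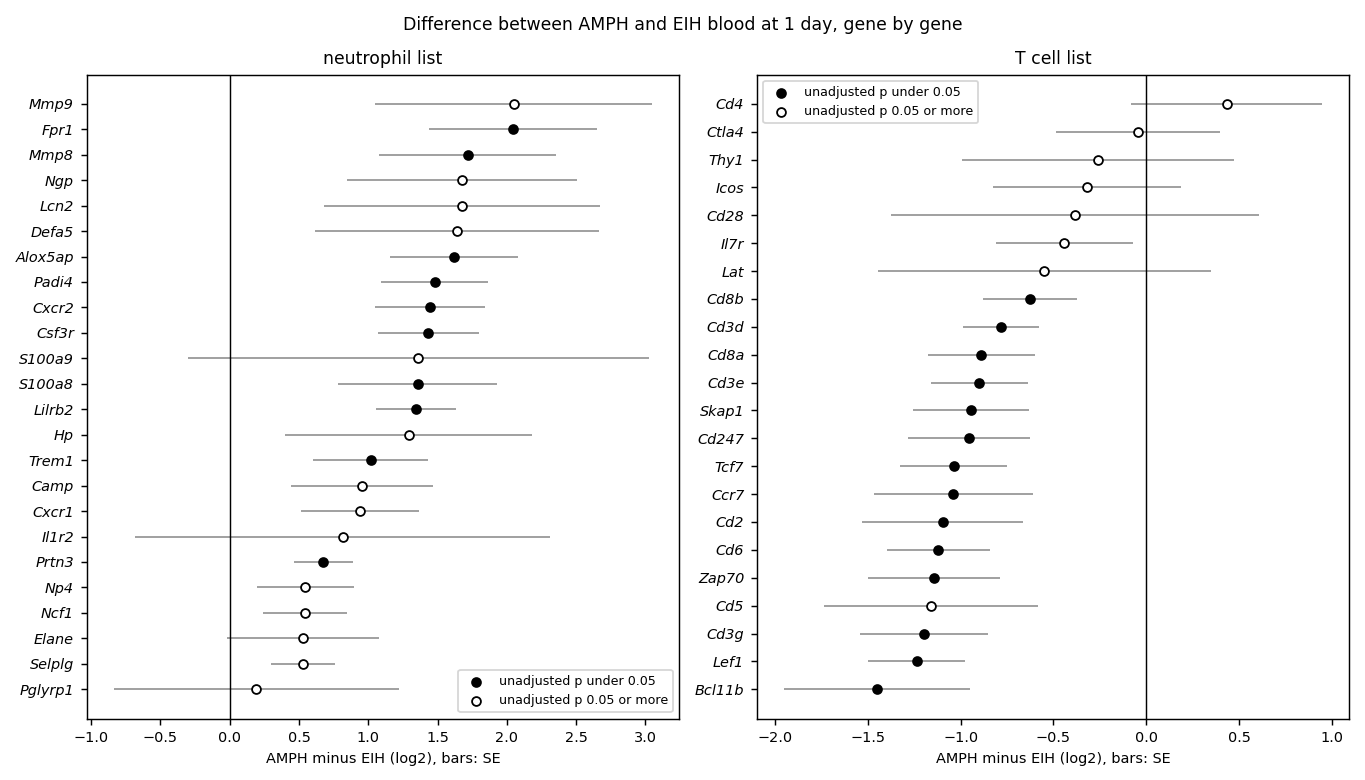
AMPH minus EIH difference (log2, horizontal axes) of each tested member of the neutrophil and T cell lists, with the standard error as a bar and filled points at an unadjusted p under 0.05. All 24 neutrophil members lie right of 0 and 21 of the 22 T cell members lie left of it, and no member passed correction over all genes.

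Because members of the myeloid lists lay together, the promoters of these genes were searched for GAGGAA, the core of the motif of PU.1, a factor that directs myeloid development. The search covered both strands of RefSeq windows of 300 bases on GRCr8, from 250 bases before to 50 after each gene start. Of 25 neutrophil genes on the array, 16 had a window and 9 of these held the motif (56.2%). Of 22 monocyte genes 20 had a window and 13 held it (65.0%), and of 22 T cell genes 15 had a window and 5 held it (33.3%), beside 27.5% of all 27457 windows. The 27457 windows were not limited to genes on the array, so that share covers an unlike set of genes. These shares describe letters only. The windows of Csf3r (chr5:143582970-143583269, plus strand), Itgam (chr1:192089342-192089641, plus strand) and Lef1 (chr2:222340463-222340762, plus strand) are shown 5′ to 3′, picked after their values were seen as the G-CSF receptor, the largest monocyte difference and the leading T cell gene. Capitals mark the motif or its reverse complement TTCCTC, present once in Csf3r, at 2 places in Itgam and at 0 in Lef1. Of other named genes whose windows were read, Lilrb2 held it at 2 places and Cxcr2, Cd3d and Tcf7 at 0. The 3 windows shown thus do not stand for every gene of their lists.
Csf3r: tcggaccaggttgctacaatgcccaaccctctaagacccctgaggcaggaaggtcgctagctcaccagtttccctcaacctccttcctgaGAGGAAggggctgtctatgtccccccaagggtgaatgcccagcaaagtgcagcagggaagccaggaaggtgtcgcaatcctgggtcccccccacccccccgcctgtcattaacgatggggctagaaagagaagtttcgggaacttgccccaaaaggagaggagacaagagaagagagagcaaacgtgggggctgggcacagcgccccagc
Itgam: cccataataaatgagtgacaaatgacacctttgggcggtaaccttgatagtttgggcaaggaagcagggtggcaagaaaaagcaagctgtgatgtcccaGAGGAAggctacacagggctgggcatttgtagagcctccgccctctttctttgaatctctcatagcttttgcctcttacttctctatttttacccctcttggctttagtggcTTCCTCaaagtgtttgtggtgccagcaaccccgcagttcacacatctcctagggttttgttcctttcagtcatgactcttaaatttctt
Lef1: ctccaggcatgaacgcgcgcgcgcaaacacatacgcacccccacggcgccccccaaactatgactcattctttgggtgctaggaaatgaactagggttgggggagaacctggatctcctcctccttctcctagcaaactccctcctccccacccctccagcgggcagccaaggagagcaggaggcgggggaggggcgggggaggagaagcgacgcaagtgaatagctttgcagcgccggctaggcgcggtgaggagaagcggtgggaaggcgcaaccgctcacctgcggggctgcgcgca

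B cell and antigen presentation genes had lower means after AMPH with most of the distance in AMPH replicates 3 and 4. Of 11 B cell genes 10 had a lower mean, the median was -0.60, and 3 were at an unadjusted p under 0.05. That count was 0 without EIH replicate 3 or AMPH replicate 4, 1 without EIH replicate 1, 2 or 4, and 5 without AMPH replicate 2. Over all genes the lower count, 662 with all arrays, moved too. It was 436 without EIH replicate 3 and 460 without AMPH replicate 4. Without EIH replicates 1, 2 and 4 it was 450, 652 and 479, and without AMPH replicate 2 it was 865. Ms4a1, which encodes CD20, measured 9.47, 9.28, 9.35 and 9.68 after EIH and 9.15, 9.06, 6.96 and 8.12 after AMPH, a difference of -1.13 ± 0.47. AMPH replicates 1 and 2 lay just under the EIH arrays, and replicates 3 and 4 were further below. Ebf1, a B lineage factor, differed by -0.93 ± 0.34, Cr2, a complement receptor, by -1.09 ± 0.45, and Fcer2, the low-affinity IgE receptor, by -1.59 ± 0.72. Without AMPH replicate 3 the differences were -0.67 for Ms4a1, -0.64 for Cr2 and -0.83 for Fcer2.

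Of 12 genes of MHC class II presentation, 9 had a lower mean after AMPH, with a median of -0.92, and 6 were at an unadjusted p under 0.05 in that direction. The count was 1 without EIH replicate 4 or AMPH replicate 4, and 2 without EIH replicate 3 or AMPH replicate 3, and the median was -0.60 without AMPH replicate 3. RT1-DOa, a chain of the class II modulator DO, measured 9.01, 8.66, 8.87 and 9.16 after EIH and 8.21, 7.96, 6.96 and 7.75 after AMPH, a difference of -1.21 ± 0.29 without overlap. RT1-Da, a classical class II chain, differed by -1.12 ± 0.40 and by -0.99 ± 0.40 on its other probe, and Ciita, the master regulator of class II genes, by -0.75 ± 0.28. Cd74, the invariant chain, read 6.96 on AMPH replicate 4 but 12.64 to 14.99 on the other 7 arrays, so its difference of -2.56 ± 1.54 rests on that array. The other 3 members had a higher mean after AMPH. Ctsh, a lysosomal protease that myeloid cells also make, differed by 0.81 ± 0.26 without overlap, Cd80, a costimulatory ligand, by 0.44 ± 0.93 and RT1-DMa, a chain of the peptide editor DM, by 0.15 ± 0.21. Among 15 class I and processing genes 11 had a lower mean and the median was -0.40, which became -0.11 without AMPH replicate 3, -0.14 without AMPH replicate 2, -0.21 without EIH replicate 4 and -0.23 without EIH replicate 3.

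Other blood cell lists had smaller medians than those above. Natural killer and cytotoxic genes had a median of 0.07 over 21 members, with 12 higher and 9 lower, and the median ranged from -0.38 to 0.40 as each array was left out. Prf1, perforin, differed by -0.67 ± 0.44 (-0.43 without AMPH replicate 3 and -1.08 without AMPH replicate 2) and Gzmb, granzyme B, by 0.25 ± 0.83. Platelet genes had a median of 0.32 over 12 members, with 0 at an unadjusted p under 0.05 in limma. Of these 12 members 10 had a higher mean after AMPH, against 49.4% of all genes. Without AMPH replicates 3 and 4 all 12 did, with a median of 0.48. The platelet median was 0.17 without EIH replicate 1, the array with the lowest platelet mean (11.37 against 12.10 to 12.17 in the other EIH arrays). Erythroid genes had a median of 0.05 over 35 members, 27 of them higher, against 49.4% of all genes. This became 19 higher and 16 lower without EIH replicate 4, and 29 higher and 6 lower without EIH replicate 2. At an unadjusted p under 0.05 were 2 of the 35, both higher, near the 6.77% of all genes. Among the erythroid genes, Dmtn, a membrane skeleton protein of red cells, differed by 0.75 ± 0.22 and Hemgn, an erythroid nuclear factor, by -0.32 ± 0.18. Alas2 differed by 0.01 ± 0.14 at the ceiling of the scale, where a difference could not be seen.

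Genes that respond to stress hormones were mostly higher after AMPH. Of 24 glucocorticoid response genes 18 had a higher mean, the median was 0.59, and 7 were at an unadjusted p under 0.05 higher and 1 lower. The median was 0.20 without AMPH replicate 3 and 0.37 without EIH replicate 2. Sgk1, a kinase induced by glucocorticoids, measured 9.23, 8.72, 8.94 and 8.88 after EIH and 9.82, 9.64, 9.68 and 10.12 after AMPH, a difference of 0.87 ± 0.19. The groups did not overlap and replicate 3 of AMPH was not apart at this gene. Fkbp5, a chaperone of the glucocorticoid receptor, lay between 8.84 and 9.56 after EIH and measured 9.75, 9.86, 11.09 and 10.36 after AMPH, a difference of 1.08 ± 0.33, with 0.92 ± 0.35 and 1.01 ± 0.32 on its other probes. Cebpd, a myeloid factor, differed by 1.32 ± 0.38. Dusp1, a phosphatase that ends MAP kinase signals, differed by 1.47 ± 0.42. Tsc22d3, which encodes GILZ and is among the most used glucocorticoid reporters, differed by 0.08 ± 0.19 with overlapping groups (95% interval of the log2 difference -0.36 to 0.52), and 0.68 ± 0.32 on its dimmer probe. The clock genes Per1 and Dbp differed by 0.75 ± 0.39 (0.43 without AMPH replicate 3) and -0.20 ± 0.22. Several of these genes are also expressed in neutrophils, whose markers lay in the same direction with a median of 1.35, and the part of cell numbers in these differences was not tested.

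Immediate early genes had a median of 0.48 over 25 members, with 7 at an unadjusted p under 0.05 higher and 1 lower, and 4 higher without EIH replicate 2. Junb and Atf3, transcription factors induced within minutes to hours of a stimulus, differed by 0.97 ± 0.30 and 0.81 ± 0.21. Myc, a growth regulator, was in the opposite direction. It measured 10.31, 10.05, 10.32 and 10.12 after EIH and 9.47, 9.62, 9.25 and 9.12 after AMPH, a difference of -0.84 ± 0.18 without overlap.

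Cytokine receptors had a median of 0.42 over 30 genes, with 8 at an unadjusted p under 0.05 higher and 3 lower. Without AMPH replicate 4 the median was 0.26 and the lower count 1. Besides Csf3r and Cxcr2, Il17ra, a subunit of the interleukin 17 receptor, differed by 0.81 ± 0.21 (1.60 ± 0.72 on its other probe) and Tnfrsf1a, a receptor for TNF, by 0.73 ± 0.21. The lowest member was Ccr6, a chemokine receptor, at -1.22 ± 0.37. The highest was Il1r1, at 1.77 ± 0.47 over 3 values in each group, but its other probe gave -1.94 ± 0.67, so its direction is not settled. Ligands had a median of 0.35 over 27 genes, and 0.21 without AMPH replicate 4 and 0.23 without AMPH replicate 3. Il1rn, the interleukin 1 receptor antagonist, measured 12.18, 11.82, 12.29 and 12.35 after EIH and 12.43, 13.11, 12.94 and 13.36 after AMPH, a difference of 0.80 ± 0.24, with 1.21 ± 0.49 on its other probe. Il1b, interleukin 1 beta itself, differed by 0.87 ± 0.33 (0.58 without AMPH replicate 4), and Tgfb1 by 0.58 ± 0.20, both with overlapping groups.

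Acute phase and complement genes had a median of 0.80 over 26 members, with 9 at an unadjusted p under 0.05, all higher. The count was 4 without EIH replicate 1 or AMPH replicate 3 and 5 without EIH replicate 3, and the median was 0.40 without AMPH replicate 3. Beside Cfb, the leading members were Cfp, properdin, which stabilises the alternative complement pathway (0.98 ± 0.21), Cfd, the factor D of that pathway (1.39 ± 0.43), and Itih4, whose values were at or under an intensity of 32 on 4 arrays (1.54 ± 0.45). Cfp measured 10.67, 10.27, 10.41 and 10.68 after EIH and 11.22, 11.47, 11.30 and 11.93 after AMPH, so these groups did not overlap.

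Interferon response genes were divided. The median was -0.02 over 34 members, with 16 higher and 18 lower, and 3 were at an unadjusted p under 0.05, all higher. That share is near the 6.77% of all genes. Without AMPH replicate 1 there were 3 higher and 4 lower, and without AMPH replicate 2 there were 5 higher. Ifit3 measured 8.73, 9.59, 9.12 and 9.30 after EIH and 10.75, 9.80, 10.36 and 10.65 after AMPH, a difference of 1.20 ± 0.28, and Oasl, an antiviral sensor relative, differed by 1.02 ± 0.33. Gbp4 differed by 1.36 ± 0.34. Mx1, the antiviral GTPase, differed by -1.02 ± 0.66 (-0.46 without AMPH replicate 3) and Irf7, which drives type I interferon genes, by -0.24 ± 0.36, both with overlapping groups.

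Heat shock genes had no common direction between the drug and heat. Of 28 chaperone genes 11 had a higher and 17 a lower mean after AMPH, with a median of -0.13. Without AMPH replicate 3 this turned to 19 higher and 9 lower with a median of 0.05, and without AMPH replicates 3 and 4 to 17 higher and 11 lower with a median of 0.12. The median was -0.05 without EIH replicate 1, -0.05 without EIH replicate 3 and -0.22 without AMPH replicate 2. At an unadjusted p under 0.05 was 1 member, Hspa1l, an HSP70 relative best known from testis. It lay between 4.25 and 5.43 after EIH and measured 7.11, 5.39, 7.05 and 6.35 after AMPH, a 2.83-fold higher level (limma adjusted p = 0.295) with overlapping groups and 2 values at or under an intensity of 32. Hspa4, another HSP70 relative, differed by -0.74 ± 0.44, and its other probe, which was the brighter one on these 8 arrays (means of 10.90 after AMPH and 12.77 after EIH), by -1.86 ± 0.42. Dnajb1, a cochaperone induced by heat shock factor, measured 12.48, 12.34, 12.08 and 11.97 after EIH and 12.42, 12.54, 11.13 and 11.79 after AMPH, while the saline arrays lay between 8.79 and 10.00. At Dnajb1 both treated groups were thus above all saline arrays, and their own difference was -0.25 ± 0.33 (95% interval -1.01 to 0.52). Hsph1, a large HSP70 relative, lay between 10.10 and 11.27 in the 8 treated arrays and between 6.03 and 8.42 on saline arrays, with a difference of -0.02 ± 0.29 (95% interval -0.69 to 0.65). Hsp90aa1, the inducible HSP90, was chosen after its values were seen. It lay between 12.42 and 14.39 in the treated arrays and between 9.90 and 11.82 on saline arrays, with a difference of -0.42 ± 0.41. Hspa1b, an inducible HSP70, differed by 0.81 ± 0.51 (0.33 without EIH replicate 2, and -0.69 ± 0.60 on its dimmer probe) and Hspb1 by 0.48 ± 0.44, both with overlapping groups, and a saline array reached 12.67 for Hspa1b. The list mean was 9.53 to 10.05 on the treated arrays over 27 members. On saline replicates 1 to 4 it was 9.19, 9.93, 9.29 and 8.39 over 25 members. Saline replicate 2 thus lay within the treated range.

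Metabolic and housekeeping lists had smaller medians than the neutrophil and T cell lists. Glycolysis and hypoxia genes had a median of 0.44 over 31 members with 7 at an unadjusted p under 0.05, all higher, 4 of them without EIH replicate 1, and a median of 0.29 without AMPH replicate 3. Aldoa, an aldolase, differed by 0.71 ± 0.19, Tpi1, triosephosphate isomerase, by 0.85 ± 0.23, Pfkl, a phosphofructokinase, by 0.63 ± 0.19 and Ndrg1, a hypoxia reporter, by 0.80 ± 0.20, with 0.12 ± 0.44 on its dimmer probe. Of 58 cytosolic ribosomal protein genes 55 had a lower mean after AMPH, with a small median of -0.32, and 10 were at an unadjusted p under 0.05, all lower. That count was 5 without EIH replicate 3, AMPH replicate 3 or AMPH replicate 4, 6 without EIH replicate 1 or 4, and 16 without AMPH replicate 2. Without AMPH replicates 3 and 4 the count was 0 in limma and the median -0.14, with 50 members lower. The mean over all 58 was 14.33, 14.35, 14.59 and 14.42 after EIH and 14.22, 14.25, 13.96 and 13.90 after AMPH. Rpl27 differed by -0.67 ± 0.20 (-0.44 ± 0.18 on its other probe), Rpl30 by -0.57 ± 0.18 (-0.29 ± 0.18 on its other probe), Rps27 by -0.51 ± 0.17 and Rps13 by -0.59 ± 0.19.

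Cholesterol synthesis genes had a median of -0.38 over 16 members, 14 of them lower, with 4 at an unadjusted p under 0.05 and 2 without EIH replicate 1, 3 or 4. Idi1, an isomerase of the isoprenoid steps, differed by -0.71 ± 0.23 and Sqle, squalene epoxidase, by -0.78 ± 0.30 (-0.48 without AMPH replicate 3). Fdft1, squalene synthase, differed by -1.76 ± 0.51 with 1 value at the low end. Cell cycle genes had a median of -0.05 over 35 members. Among these E2f1, a regulator of S phase entry, measured 7.71, 7.78, 7.84 and 8.21 after EIH and 7.62, 7.16, 6.33 and 5.99 after AMPH, a difference of -1.11 ± 0.37. For p53 and apoptosis genes the median was 0.11 over 25 members, and Fas, the death receptor, differed by 1.16 ± 0.32 without overlap, with 0.55 ± 0.29 on its other probe. Metallothionein and oxidative stress genes had a median of 0.07 over 25 members. Gsr, glutathione reductase, measured 7.47, 7.67, 7.38 and 7.56 after EIH and 8.09, 8.25, 8.47 and 8.50 after AMPH, a difference of 0.81 ± 0.17, and Hmox1, haem oxygenase 1, differed by 0.91 ± 0.39 (0.51 without AMPH replicate 3). Proteasome and respiratory chain genes had medians of -0.01 over 32 members and -0.03 over 45. The medians were 0.17 for 15 eosinophil, basophil and mast cell genes, 0.03 for 21 genes of endoplasmic reticulum stress, 0.09 for 20 of fatty acid oxidation and 0.00 for 16 of the circadian clock. For the first of these the median ranged from -0.09 without EIH replicate 3 to 0.33 without AMPH replicate 3. Without AMPH replicates 3 and 4 the medians were 0.31 for glucocorticoid response, 0.40 for acute phase and complement and 0.22 for glycolysis and hypoxia genes, -0.34 for B cell, -0.35 for MHC class II and -0.17 for class I genes.

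At 3 h the same pair of treatments gave another picture. In its own limma fit of 4 against 4 arrays, 1 of 10068 genes (0.00993%) had an adjusted p under 0.05 and 788 (7.83%) had an unadjusted p under 0.05. The neutrophil median was 0.02, the monocyte median -0.12, the T cell median 0.14 and the MHC class II median 0.29. Heat shock genes had a median of -0.70 at 3 h, lower after AMPH than after EIH. Of these 28 genes, 2 had an unadjusted p under 0.05 at 3 h, both lower. That share is near the 7.83% of all genes in either direction. Median intensities lay between 139.0 and 145.8 on the 12 blood arrays of 3 h and between 164.8 and 171.0 on the 12 of 1 day, without overlap, so only differences within a time were compared between times.

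The change of the AMPH minus EIH difference from 3 h to 1 day was tested on all 16 arrays. It passed correction at 1 of 9667 genes (0.0103%), while 630 genes (6.52%) had an unadjusted p under 0.05 with a more positive and 694 (7.18%) with a more negative difference at 1 day. The called gene was Sln. At 3 h it measured 8.49, 8.63, 8.62 and 8.39 after EIH and 7.77, 7.79, 8.02 and 7.94 after AMPH, so AMPH was the lower group. At 1 day it measured 7.87, 7.90, 7.54 and 7.73 after EIH and 8.82, 8.53, 9.19 and 8.97 after AMPH, so AMPH was the higher group. The differences were -0.65 ± 0.18 and 1.12 ± 0.20, and they differed by 1.77 ± 0.24 (limma adjusted p = 0.0299). When each of the 16 arrays was left out in turn the estimate stayed between 1.66 and 1.88, but the adjusted p was above 0.05 in 12 of the 16 fits, up to 0.113 without AMPH replicate 2 of 3 h. The 4 fits with an adjusted p below 0.05 left out EIH replicate 2 or AMPH replicate 4 of 3 h, or EIH replicate 4 or AMPH replicate 2 of 1 day.

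Other genes with the smallest p-values for this change did not pass correction in this fit. Tph1, Elf4, Dmtn, Trim42, Mxd1, Ecel1 and Strn4 did pass it in each of 4 alternatives. These were without the lowest 25% of genes, among genes measured on all 16 arrays, with an intensity trend and robust spread, and with array weights. Quantile normalization within each time and equal medians called Sln alone, and the fit with 24 blood arrays did not call Dmtn or Strn4. As each array was left out, Elf4 was called without AMPH replicate 4 of 3 h. Elf4, Tph1 and Ecel1 were called without EIH replicate 4 of 1 day, and none of these genes in the other such fits. Tph1, a tryptophan hydroxylase, was 1.75 ± 0.38 higher after AMPH at 3 h and differed by -1.40 ± 0.36 at 1 day, a change of -3.15 ± 0.53 (limma adjusted p = 0.0762), and its dimmer probe gave 0.11 ± 0.43 at 1 day. Elf4, an ETS factor of leukocytes, differed by 2.53 ± 0.40 at 3 h and -0.49 ± 0.28 at 1 day. Dmtn differed by -0.84 ± 0.22 at 3 h and 0.75 ± 0.22 at 1 day. Trim42 went from -0.90 to 0.91, Mxd1, a MYC antagonist, from -0.74 to 0.36, Ecel1 from 1.58 to -0.72 and Strn4 from 0.95 to -0.37, where its other probe gave -1.25 ± 0.45 at 1 day. At an unadjusted p under 0.05, 7 of 23 neutrophil, 9 of 25 immediate early and 9 of 35 erythroid genes had a more positive difference at 1 day. So had 8 of 29 cytokine receptor and 6 of 23 glucocorticoid response genes, with 1 more negative in each. More negative were 14 of 58 ribosomal protein, 5 of 16 cholesterol synthesis, 4 of 11 B cell and 4 of 21 T cell genes. MHC class II had 4 of 12 more negative and 1 more positive, and heat shock genes 1 of 28, more positive. The erythroid median was -0.24 at 3 h, with 6 of 35 members lower at an unadjusted p under 0.05, and 0.05 at 1 day. Dusp1 was 0.91 lower after AMPH at 3 h (-0.91 ± 0.28) and 1.47 higher at 1 day, a change of 2.39 ± 0.51 (limma adjusted p = 0.107).

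**Figure D4:**
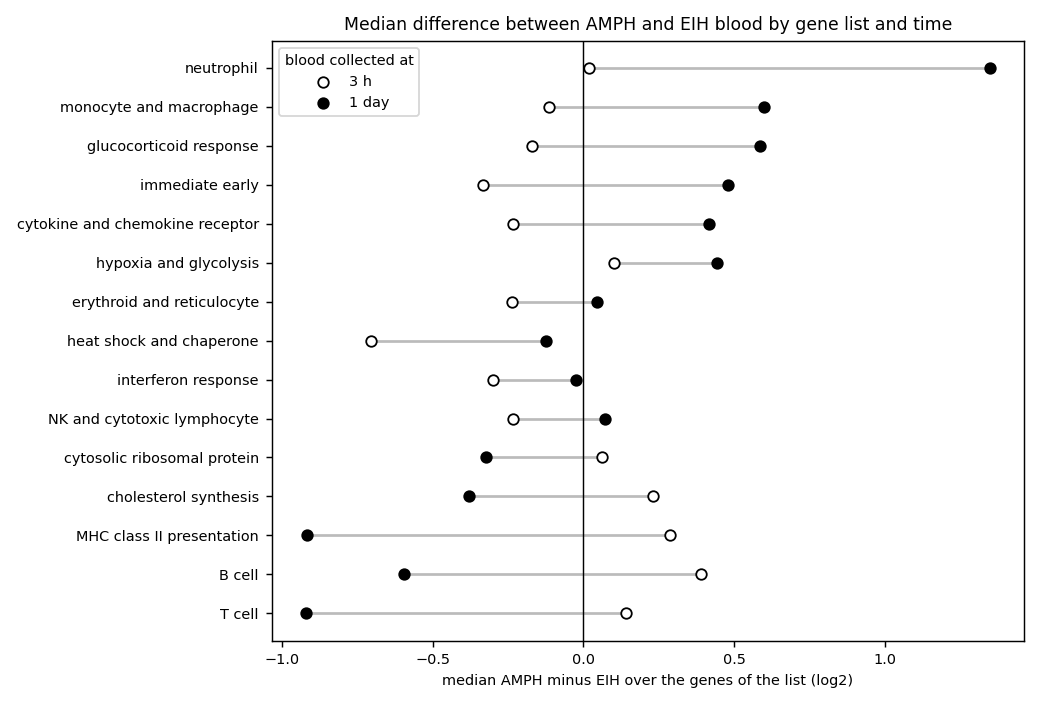
Median AMPH minus EIH difference (log2, horizontal axis) over the members of 15 gene lists, in blood of 3 h (open points) and of 1 day (filled points). The neutrophil median lies at 0.02 at 3 h and at 1.35 at 1 day, and the T cell median at 0.14 and -0.92.

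Transcripts of other tissues were present on some arrays. Alb, serum albumin, a liver transcript, read 4.80, 6.59, 9.90 and 9.87 in EIH replicates 1 to 4, 5.55, 12.99 and 9.11 in AMPH replicates 2 to 4 with no value in replicate 1, and 7.59 to 12.77 on saline arrays. The liver list had a median difference of 0.70 over 24 members, which became -0.37 without AMPH replicate 3, 0.27 without EIH replicate 2, 0.42 without EIH replicate 1, 1.05 without AMPH replicate 2 and -0.27 without AMPH replicates 3 and 4. The mean over its 16 members with values on all 8 arrays was 9.42 on AMPH replicate 3 and 5.62 to 7.26 on the other 7 arrays. Pon1, Cps1, Itih4 and part of the acute phase list are liver transcripts, and the part of liver RNA in their differences was not tested. Transferrin, Tf, measured 12.03, 11.69, 12.27 and 12.30 after EIH and 12.64, 12.68, 14.17 and 13.59 after AMPH, a difference of 1.20 ± 0.37, and Fga, fibrinogen alpha, differed by 2.20 ± 0.90.

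Of 10 measured salivary gland transcripts, 7 had a lower and 3 a higher mean after AMPH, with a median of -2.29, or -1.27 without EIH replicate 4. This list was written after their values were seen and is described without a test. The members with a higher mean were Smr3b (1.13), Prb1 (1.09) and Klk1 (0.52). Amy1, salivary and pancreatic amylase, read 11.27, 11.97, 11.31 and 15.17 after EIH, 10.62, 9.61, 8.83 and 8.65 after AMPH and 9.71 to 14.14 on saline arrays. EIH replicate 4 was far above the rest, and all AMPH arrays were below all EIH arrays. Bpifa2, a parotid secretory protein, read 11.39, 12.45, 11.44 and 15.22 after EIH and 10.66, 9.80, 9.01 and 9.55 after AMPH, and Dnase1, a secreted nuclease, 10.77, 11.87, 10.21 and 14.45 after EIH and 9.57, 8.38, 7.05 and 8.20 after AMPH. These transcripts varied widely within the saline arrays too. Lists of neuron and glia, muscle and skin, and choroid plexus epithelium had medians of 0.20, 0.00 and -0.01 with 0 members each at an unadjusted p under 0.05 in limma.

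**Figure D5:**
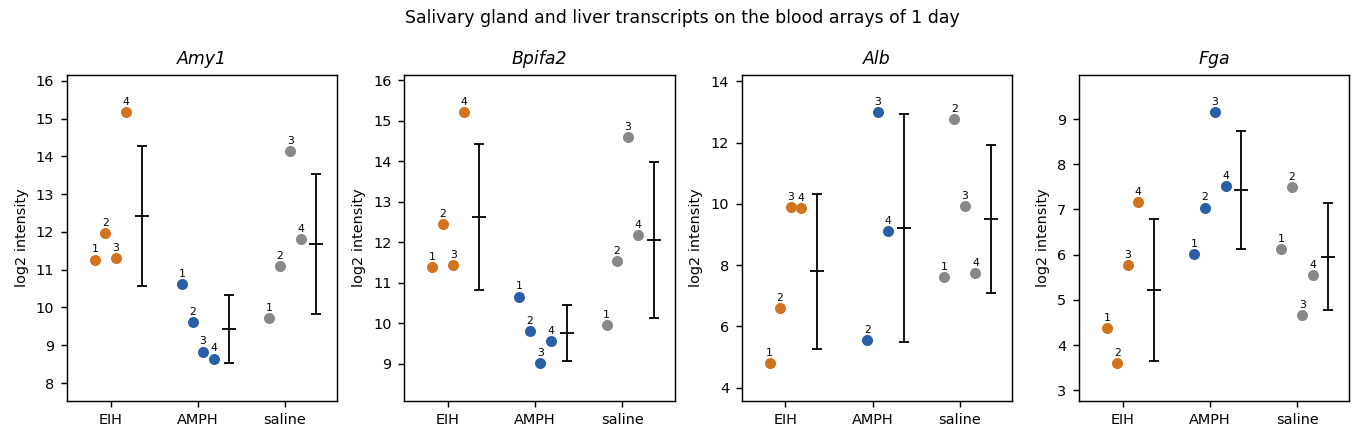
Log2 intensity (vertical axes) of 2 salivary gland genes and 2 liver genes on each blood array of 1 day, with EIH in orange, AMPH in blue and saline in grey; digits give the replicate and bars the mean ± SD. Amy1 reaches 15.17 on EIH replicate 4, and Alb reaches 12.99 on AMPH replicate 3.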

How the data were processed

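Blood RNA of single rats was measured on single-colour Agilent arrays, and 4 AMPH and 4 EIH arrays of 1 day were compared. The values are intensity values on a linear scale as deposited by the authors. No source used here states how background was corrected, how arrays were normalized or why some cells are blank. Of 14055 probes, 12926 had 1 gene symbol, 0 several and 1129 none in the platform annotation. Symbols were updated through RefSeq, and each of 10412 genes was represented by its brightest probe, judged by the mean of 44 arrays. Blank cells stayed missing, and log2 was taken with no further normalization.

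Each gene with at least 2 values per group entered a limma fit (limma 3.58.1 in R 4.3.3, files read by the data.table package, version 1.17.8) with a mean per group and empirical Bayes moderation, with Benjamini-Hochberg adjustment at 0.05. The change between times used 16 arrays. Blank shares were compared with an exact permutation test (scipy 1.17.1). Tables and figures used Python 3.11.15, pandas 2.3.3 and matplotlib 3.10.9. The number of arrays limits the precision.

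The rule for named genes, among genes with at least 3 values per group, took 12 called genes per direction, filled by the smallest p among genes without overlap, up to 4 members of each list with at least 3 members at an unadjusted p under 0.05 in 1 direction, a fixed set of marker genes, and 4 genes per direction for the change between times. Of that set, Cd79a and Mki67 were not among the genes tested. The arrays, the 32 gene lists and the rules were chosen with earlier results of these data known. Reading lists by unadjusted p followed from finding no called gene. Members named beyond the rule, and the salivary gland list, were chosen after their values were seen.

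Simulated arrays with known differences and this spread were used to test the fits, with 50 genes changed at each size. For log2 changes of 1, 2, 3 and 4 the 1 day fit called 32%, 62%, 64% and 92% of them. The fit of the change between times called 6%, 52%, 54% and 80%. Unchanged genes were called at 7 and 6 places. Most simulated 2-fold changes were thus missed, so finding no called gene does not exclude changes of that size.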

Additional observations from a re-analysis of the deposited data

Results flagged for a closer look

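Dixon's test at 95% compares the gap between the highest or lowest of 4 arrays and its nearest neighbour with the group's range. It was passed by 22 of 293 groups of 4 examined, where chance alone passes about 1 in 20. These log2 intensities after EIH were 7.64 for Alox15b (lowest, replicate 4), 7.20 for Sirt4, 7.09 for Dnmt3b, 8.08 for Lilrb2 and 8.66 for Cr2 (each lowest, replicate 2), 9.48 for Hmox1 and 14.74 for Rps27 (each highest, replicate 1), 7.28 for S100a9 and 15.98 for Alas2 (each lowest, replicate 3), 10.83 for Prf1 (highest, replicate 2) and 15.28 for Pf4 (lowest, replicate 1). After AMPH they were 9.22 for Megf9, 5.24 for Zfp292 and 14.60 for Il1b (each highest, replicate 4), 11.32 for Hmox1 and 8.47 for Per1 (each highest, replicate 3) and 8.40 for Dbp (lowest, replicate 3). Alas2 varied by so little at the ceiling of the scale that this distance has no size.

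Among list means, EIH replicate 1 was lowest for platelet genes (11.37) and EIH replicate 2 lowest for fatty acid oxidation genes (8.45). AMPH replicate 3 was highest for glucocorticoid response genes (10.93) and lowest for eosinophil, basophil and mast cell genes (7.37), and AMPH replicate 1 was lowest for cytokine receptors (8.80).

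Sln was the gene whose AMPH minus EIH difference at 1 day differed from that at 3 h in limma, by 1.77 on the log2 scale. Causes of these values were not tested.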

How the results depend on the processing

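No paired analysis was possible because the labels give each blood sample its own rat number and no number shared between AMPH and EIH. The alternatives for the 1 day comparison were 3 other scalings, dropping the lowest 25% of genes or genes with blanks, filling blanks, array weights, a robust spread with an intensity trend, fits with 12 or 24 blood arrays, a plain equal-variance test, a minimum of 1.5-fold, each probe by itself, the mean over probes and leaving out each array. Leaving out AMPH replicates 3 and 4 was chosen after seeing the data. The count of called genes stayed at 0 in each of these but the trend with robust spread, which called 1 gene, Lilrb3l. The 1329 genes with an unadjusted p under 0.05 became 231 against a minimum of 1.5-fold and 694 without AMPH replicates 3 and 4. They numbered 951 to 1504 as each array was left out. For the change between times, called genes numbered 13 without the lowest 25% of genes, 15 among genes measured on all 16 arrays, 24 with the trend and robust spread, 11 with array weights, 14 with 24 blood arrays and 0 to 6 as each array was left out. Quantile normalization within each time and equal medians each left 1 called gene, Sln. Members with an unadjusted p under 0.05 became 5 for neutrophil and 6 for T cell genes without AMPH replicates 3 and 4, and 10 for monocyte genes with the trend and robust spread. For MHC class II they became 3 with the mean over probes, 3 with the plain test, 1 without AMPH replicates 3 and 4, and 1 to 6 as each array was left out. The blank share difference ranged from -1.05 to 0.444 percentage points as each array was left out.

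Of 117 named genes, 99 kept their direction in every alternative and 18 turned in at least 1. Many of them were named for a small p or for groups without overlap in these same data. Such a choice by itself favours a kept direction, so the 99 is no separate check of the differences. On another probe the difference was -0.19 for Sln, -0.21 for Megf9, -1.74 for Mrc1, 0.24 for Cdk2, 0.080 for Pcna, 0.26 for Srebf2, -0.69 for Hspa1b and 0.11 for Tph1. The mean over probes gave -0.14 for Mrc1 and 0.094 for Cdk2. Without AMPH replicates 3 and 4 it was -0.011 for Apoa1, -0.14 for Hspb1, 0.26 for Dnajb1, 0.37 for Hsph1 and 0.024 for Mx1. Array weights gave 0.018 for Dnajb1 and 0.10 for Hsph1, and equal medians gave -0.013 for Alas2. As each array was left out, Hsph1 ranged from -0.22 to 0.17, Pf4 from -0.072 to 0.15, Gzmb from -0.41 to 0.77, Dnajb1 from -0.44 to 0.033, S100a9 from -0.070 to 2.57 and Tsc22d3 from -0.017 to 0.18. The cause of these shifts was not tested, beyond the samples or genes left out. The 4 arrays per group, the stepped values at the low end and the ceiling of the scale limit what could be seen.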

Other observations

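Some list members read low on 1 or 2 arrays where their neighbours in function did not. Cd74 read 6.96 on AMPH replicate 4, where RT1-Da read 12.55 and RT1-DOa 7.75. S100a9 read 7.28 on EIH replicate 3 and 9.33 on AMPH replicate 3, where its partner S100a8 read 13.64 and 15.83, the highest S100a8 values of each group. Hbb, haemoglobin beta, read 14.00 on AMPH replicate 4 and 15.85 to 15.98 on the other 7 arrays.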
